A study of Mus musculus with 6 samples.

Results

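The mRNA levels of 10 genes of the GCN2-ATF4 amino acid response were examined in the livers of fasted mice with or without hepatic *Pak4*. The genes were chosen by name for their place in the pathway, with earlier results of these data known: *Eif2ak4*, *Atf4*, *Atf5*, *Ddit3*, *Trib3*, *Chac1*, *Sesn2*, *Asns*, *Psat1* and *Phgdh*. All 10 were present in the expression table of 45777 genes, and 10 of 10 were among the 18636 genes with enough reads to be tested. Bulk liver RNA was sequenced from 6 male mice aged 8 weeks and fasted for 24 h. They came from a floxed *Pak4* line and an Alb-Cre line, whose strain names in the paper mark a C57BL/6 (B6) origin. The WT group held 3 mice that carried the floxed *Pak4* alleles (Pak4 flox/flox) without Cre, and the LKO group held 3 mice that carried the same floxed alleles together with Alb-Cre. The albumin promoter drives Cre in hepatocytes, and *Pak4* in the other cells of the liver was not measured separately. Both groups were fasted and no fed mice were analysed here, so a response to fasting itself could not be measured. Only the LKO mice carried Cre, and effects of Cre and of *Pak4* loss cannot be told apart.

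GCN2, the product of *Eif2ak4*, is a kinase that senses uncharged tRNA when amino acids run short and phosphorylates the α subunit of the translation initiation factor eIF2. This slows general protein synthesis while the mRNAs of a few transcription factors, ATF4 and ATF5 among them, are translated more, so that their mRNA levels do not report their protein levels. ATF4 in turn activates genes for amino acid synthesis and uptake, for redox defence and, when stress persists, for cell death, often together with C/EBP proteins. The kinases PERK, PKR and HRI phosphorylate the same site of eIF2α, so the downstream genes are shared with the response to stress of the endoplasmic reticulum (ER), viral infection and haem or mitochondrial stress. The liver is the main organ that handles amino acids in fasting, when proteins are broken down to feed gluconeogenesis.

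ATF4 and C/EBP proteins bind together at composite elements whose core is commonly written TGATGNAA. This motif and its reverse complement, TTNCATCA, were searched in the RefSeq promoter windows of GRCm38.p6, each running from 250 bases before to 50 bases after a transcription start. It was present in 1304 of 32851 windows (3.97%), and in 3 of the 13 windows of the members, 1 each for *Chac1*, *Trib3* and *Asns*. The stretches that hold it are shown on the strand of the gene, 5′ to 3′, with the match in capitals, since these are the 3 members with a match in the windows searched.
Chac1, chr2:119351023-119351082, plus strand: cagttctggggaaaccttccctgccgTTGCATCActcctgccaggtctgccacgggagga
Trib3, chr2:152344028-152344057, minus strand: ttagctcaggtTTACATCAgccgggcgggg
Asns, chr6:7693210-7693258, minus strand: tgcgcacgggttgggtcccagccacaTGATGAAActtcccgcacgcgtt
The match lay 193 bases upstream of the start in *Chac1*, 14 bases downstream of it in *Trib3* and 23 bases upstream of it in *Asns*. A match describes these letters only, and the absence of one from the other members' windows does not speak for or against binding elsewhere.

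Each library held 45934632 to 59576437 reads assigned to genes. Levels are given as CPM, read counts brought to a common library size after scaling by the trimmed mean of M-values (TMM), a method that takes most genes as unchanged. The TMM factors were 1.28 to 1.43 in WT and 0.639 to 0.816 in LKO, so the choice of scaling bore on every difference. With TMM, the median log2 fold change over all genes tested was −0.04, and 40.1% of them passed an adjusted p under 0.05 (19.6% higher and 20.5% lower in LKO). When library totals replaced TMM, the median moved to −0.90, with 6.26% of genes higher and 51.4% lower, and 10.9% rather than 49.0% of the calls were in the higher direction. *Pak4* itself did not pass the test with TMM. It had 3.63 ± 0.445 CPM in WT and 2.21 ± 0.900 in LKO (SD, n = 3), a log2 fold change of −0.71 ± 0.31 (SE, adjusted p = 0.10), with LKO mouse 3 at 3.22 CPM inside the WT range of 3.21 to 4.097. Without LKO mouse 3 the change was −1.08 (adjusted p = 0.015), and with library totals it was −1.54 (adjusted p = 0.0056). Relative to the median of all genes, *Pak4* with all 6 mice was at −0.67 with TMM and −0.64 with library totals. Reads over exons that were not deleted count towards the *Pak4* level.

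The 8 hepatocyte markers were abundant in every mouse and summed to 44853 to 48303 CPM in WT and 107713 to 130471 in LKO. Summed markers of Kupffer cells (213 to 333 against 394 to 787 CPM), endothelial cells (230 to 273 against 392 to 424 CPM) and stellate cells (228 to 268 against 589 to 864 CPM) were higher in LKO without overlap, and in each of these lists 4 of 6 markers rose and none fell. Of all genes, 19.6% were called higher and 20.5% lower, and the CPM of 54.0% did not overlap between the genotypes. All marker sums here are TMM-scaled and were not computed with library totals, so their separation is shown for TMM only. With library totals 2 of 6 markers rose in each list, while 1 Kupffer cell, 2 endothelial and 1 stellate marker fell. That scaling called 6.26% of all genes higher and 51.4% lower. Neutrophil markers summed to 0.885 to 6.04 CPM in WT and 13.1 to 27.7 in LKO, with 3 of 3 tested markers higher, or 1 with library totals. The call of *Retnlg* was lost without WT mouse 2 or 3 or LKO mouse 2 or 3, and that of *S100a9* without LKO mouse 2. Cholangiocyte markers summed to 32.9 to 50.2 CPM in WT and 13.7 to 30.2 in LKO, with 1 of 4 tested markers lower. The sums of lymphocyte markers overlapped (3.96 to 6.98 against 2.35 to 4.24 CPM), with 2 of 6 markers lower and 0 higher. No marker was at 0 in all mice. Of the hepatocyte markers, 3 rose and 1 fell, or 3 and 3 with library totals. The part of these shifts in the results on the members was not tested. In bulk liver, fewer cells of a type and less RNA per cell cannot be told apart.

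Of the 10 members, 4 passed the test (40.0%), against 40.1% of all genes tested. *Atf5* rose, *Eif2ak4*, *Ddit3* and *Psat1* fell, and the other 6 were not called. The median log2 fold change of the members was −0.28, against −0.04 over all genes. Of the members, 3 of 10 were called lower, against 20.5% of all genes, and 1 of 10 higher, against 19.6%. In 5 of the 10 the CPM values of the 2 genotypes did not overlap, while 54.0% of all genes tested were separated in this way. With library totals 7 members were called, 6 of them lower and *Atf5* still higher, but their position relative to the median of all genes moved by at most 0.050. The group as a whole was therefore called about as often as the background, and the values below are given gene by gene.

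**Figure D1:**
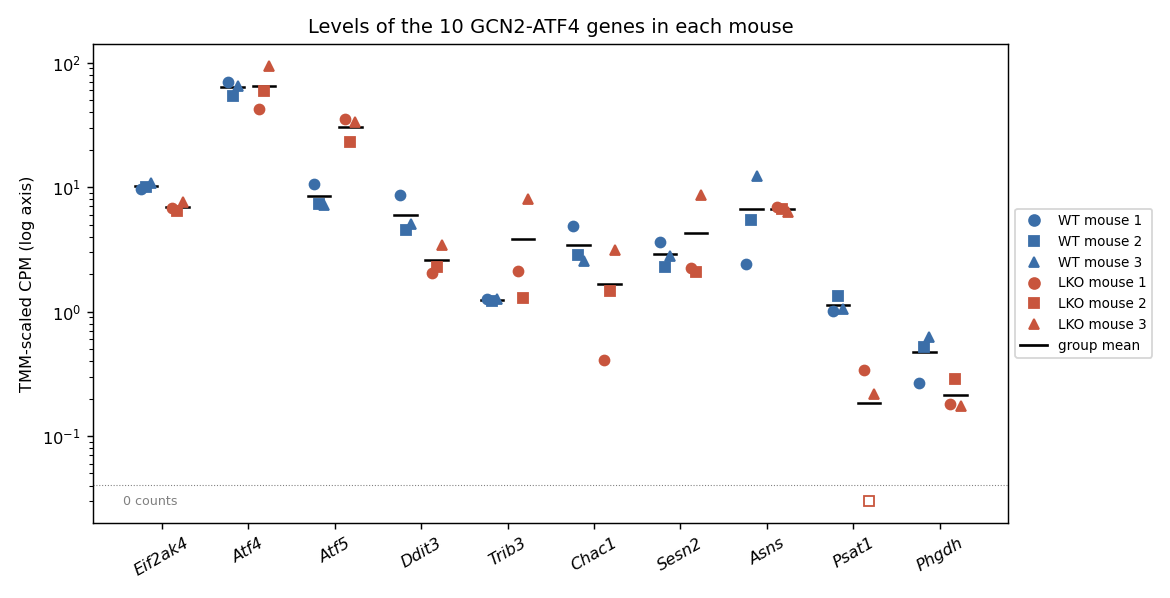
Level of each member in each mouse, as TMM-scaled CPM on a log axis, with WT mice in blue, LKO mice in red, marker shape for the mouse number and a black bar for the group mean. *Atf5* stands apart upwards and *Eif2ak4*, *Ddit3* and *Psat1* downwards in LKO, while LKO mouse 3 lies far above the other LKO mice for *Trib3* and *Sesn2*. The open symbol at the bottom is the LKO mouse with 0 *Psat1* reads.

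The sensor kinase was lower in LKO. *Eif2ak4* (Entrez 27103, chr2:118388583-118475234, plus strand) had 9.59, 9.995 and 10.8 CPM in WT mice 1 to 3 and 6.79, 6.37 and 7.53 CPM in LKO mice 1 to 3. All LKO mice lay below all WT mice. The mean fell from 10.1 ± 0.597 to 6.89 ± 0.587 CPM (SD, n = 3), a log2 fold change of −0.55 ± 0.16 (SE, adjusted p = 0.024, edgeR quasi-likelihood test), or 1.47-fold lower. This call was near its threshold: it was lost when any single mouse other than LKO mouse 3 was left out, with adjusted p of 0.057 to 0.090, although the log2 fold change stayed between −0.62 and −0.50. Leaving out a mouse also lowered the number of calls over all genes, from 7476 to between 5663 and 7309. With library totals the change of *Eif2ak4* was −1.41 (adjusted p = 6.4e-04), and relative to the median of all genes it was −0.51 under both scalings.

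The genes whose levels followed that of *Eif2ak4* most closely over the 6 mice were *Trappc11*, *Dicer1* and *Necap1*, with a root mean square difference of 0.024, 0.048 and 0.054 on the centred log2 CPM scale among 12998 genes. No member came as near: the closest was *Phgdh*, at 0.362, followed by *Atf4*, at 0.410. For *Atf4* the nearest genes were *Ppm1d* (0.105), *Wbp1l* (0.120) and *Psmd7* (0.131), and the nearest member after *Eif2ak4* was *Sesn2* (0.420). These distances describe the 6 libraries, which share their depth and scaling with every gene compared.

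The transcription factors did not move together: *Atf5* was higher, *Ddit3* was lower and *Atf4* was not called. *Atf4* (Entrez 11911, chr15:80255184-80257545, plus strand), the central activator of the response, was by far the most abundant member. It had 70.5, 54.3 and 65.3 CPM in WT mice 1 to 3 and 42.5, 59.0 and 94.3 CPM in LKO mice 1 to 3. The LKO values spanned the whole WT range, with LKO mouse 1 the lowest of all 6 and LKO mouse 3 the highest. The means were 63.4 ± 8.23 and 65.3 ± 26.5 CPM (SD, n = 3), and the log2 fold change was 0.04 ± 0.27 (SE, adjusted p = 0.91). It turned to −0.32 (adjusted p = 0.22) without LKO mouse 3. With library totals *Atf4* was called lower, at −0.82 (adjusted p = 0.034), which was 0.08 above the median of all genes under that scaling.

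*Atf5* (Entrez 107503, chr7:44812256-44816658, minus strand) encodes a close relative of ATF4 that is also translated when eIF2α is phosphorylated and acts in the mitochondrial stress response. Its levels were 10.6, 7.37 and 7.21 CPM in WT mice 1 to 3 and 35.1, 22.9 and 33.1 CPM in LKO mice 1 to 3. All LKO mice lay well above all WT mice. The mean rose from 8.41 ± 1.94 to 30.4 ± 6.53 CPM (SD, n = 3), a log2 fold change of 1.85 ± 0.23 (SE, adjusted p = 6.3e-04), or 3.61-fold. The call held when each mouse was left out in turn (1.74 to 2.07) and with library totals (1.01, adjusted p = 0.014). On the authors' TPM, a unit per gene length, the groups overlapped, at 9.22 ± 2.13 in WT and 11.7 ± 4.097 in LKO, and on log2(TPM + 1) the difference was 0.27 (adjusted p = 0.42), which stood 1.06 above the median of all genes on that scale, −0.79. With a gene length correction in the count test the change was 1.87 (adjusted p = 6.8e-04). *Atf5* shares 82 of its 1993 exon bases (4.11%) with genes on the opposite strand, among them *Nup62*, whose own change was −0.86 (adjusted p = 0.023), and whether reads were counted by strand was not given in the sources used here.

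*Ddit3* (Entrez 13198, chr10:127290793-127296291, plus strand) encodes CHOP, the factor that links a lasting stress response to cell death. It was measured at 8.56, 4.48 and 5.004 CPM in WT mice 1 to 3 and at 2.02, 2.27 and 3.44 CPM in LKO mice 1 to 3. All LKO mice lay below all WT mice, and WT mouse 1 stood above the other WT mice. The mean fell from 6.01 ± 2.22 to 2.58 ± 0.757 CPM (SD, n = 3), a log2 fold change of −1.22 ± 0.32 (SE, adjusted p = 0.017), or 2.33-fold lower. The call was lost without WT mouse 1 (−0.87, adjusted p = 0.064) and without LKO mouse 2 (−1.14, adjusted p = 0.063). With library totals it was −2.08 (adjusted p = 0.0012). Of its 1713 exon bases, 68 (3.97%) overlap *Mars* on the opposite strand, a methionyl-tRNA synthetase gene that was itself lower (−0.70, adjusted p = 0.0092).

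The stress effectors *Trib3*, *Chac1* and *Sesn2* shared a feature other than a common direction: in all 3 the highest LKO mouse was mouse 3. *Trib3* (Entrez 228775, chr2:152337425-152344060, minus strand) encodes a pseudokinase that is induced by ATF4 and CHOP and restrains Akt signalling. Its levels in WT mice 1 to 3 were 1.26, 1.22 and 1.25 CPM, and in LKO mice 1 to 3 they were 2.11, 1.29 and 8.09 CPM. The groups did not overlap, yet LKO mouse 2 lay just above the WT mice while LKO mouse 3 was several times higher. The log2 fold change was 1.63 ± 0.61 (SE, adjusted p = 0.063) and so just missed the threshold. It was 0.45 (adjusted p = 0.30) without LKO mouse 3, and 1.92 (adjusted p = 0.045) or 2.03 (adjusted p = 0.026) without LKO mouse 1 or 2. With library totals it was 0.81 (adjusted p = 0.30).

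*Chac1* (Entrez 69065, chr2:119351242-119354326, plus strand) encodes an enzyme that degrades glutathione. It had 4.83, 2.84 and 2.52 CPM in WT mice 1 to 3 and 0.409, 1.46 and 3.14 CPM in LKO mice 1 to 3, the lowest from 18 reads and the highest from 145. LKO mouse 3 fell inside the WT range and the other LKO mice below it. The log2 fold change was −1.02 ± 0.60 (SE, adjusted p = 0.21), and it became −1.89 (adjusted p = 0.031) without LKO mouse 3. With library totals it was −1.89 as well (adjusted p = 0.026, all 6 mice). Relative to the median of all genes, *Chac1* was at −0.98 with TMM and −0.99 with library totals. *Sesn2* (Entrez 230784, chr4:132492804-132510456, minus strand) encodes Sestrin2, a leucine sensor that holds mTORC1 back. It was at 3.65, 2.29 and 2.80 CPM in WT mice 1 to 3 and at 2.25, 2.06 and 8.61 CPM in LKO mice 1 to 3. The first 2 LKO mice lay below all WT mice and the third above them. The log2 fold change was 0.57 ± 0.53 (SE, adjusted p = 0.42), and it changed sign without LKO mouse 3 (−0.43, adjusted p = 0.27) and with library totals (−0.26, adjusted p = 0.71).

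**Figure D2:**
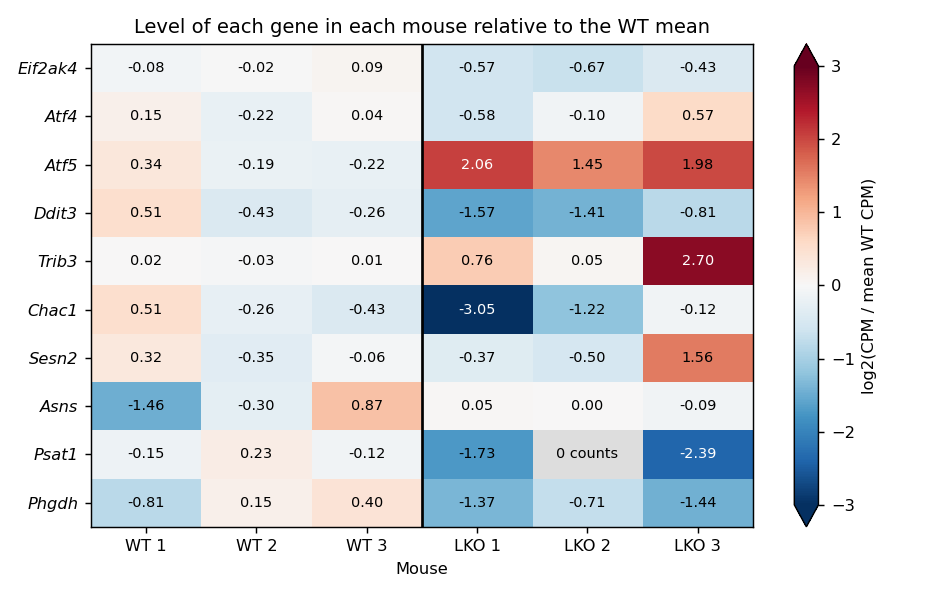
Level of each member (rows) in each mouse (columns) as the log2 ratio of its CPM to the mean WT CPM, with red above and blue below the WT mean and the value written in each cell. In LKO mouse 3 *Trib3* and *Sesn2* are red and *Chac1* is close to the WT mean, whereas *Chac1* in LKO mouse 1 is among the deepest blue cells, and *Asns* spreads widely within WT.

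LKO mouse 3 was the highest LKO mouse in 6 of the 10 members, namely *Eif2ak4*, *Atf4*, *Ddit3*, *Trib3*, *Chac1* and *Sesn2*, against 35.2% of all genes tested. It was also the LKO mouse with the most *Pak4* reads, 149 against 85 and 52. WT mouse 1 was the highest WT mouse in 6 of the 10 members, against 31.1% of all genes.

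The 3 genes of amino acid synthesis were each low or variable in fasted liver, and only *Psat1* passed the test. *Psat1* (Entrez 107272, chr19:15905123-15925059, minus strand) encodes the aminotransferase of serine synthesis. It gave 76, 87 and 69 reads in WT mice 1 to 3 and 15, 0 and 10 reads in LKO mice 1 to 3, or 1.02, 1.33 and 1.04 against 0.341, 0 and 0.216 CPM. The 0 in LKO mouse 2 allows a level of up to 0.086 CPM (3 reads), a limit that covers counting error only. All LKO mice lay below all WT mice by a wide margin. The log2 fold change was −2.54 ± 0.70 (SE, adjusted p = 0.021), or 5.80-fold lower, and it lost its call without WT mouse 2 (adjusted p = 0.062). It was −3.35 with library totals (adjusted p = 0.0052). *Phgdh* (Entrez 236539, chr3:98313171-98339969, minus strand) encodes the dehydrogenase that opens the same route. It gave 20, 34 and 41 reads in WT and 8, 10 and 8 in LKO, or 0.268, 0.520 and 0.620 against 0.182, 0.287 and 0.173 CPM. The groups overlapped, since LKO mouse 2 exceeded WT mouse 1, and the log2 fold change of −1.14 ± 0.47 (SE) missed the threshold (adjusted p = 0.086), whereas library totals gave −2.01 (adjusted p = 0.0058). Relative to the median of all genes, *Phgdh* was at −1.10 with TMM and −1.11 with library totals.

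*Asns* (Entrez 27053, chr6:7675165-7693209, minus strand) encodes asparagine synthetase, a widely used reporter of ATF4 activity. It had 2.43, 5.41 and 12.2 CPM in WT mice 1 to 3 and 6.88, 6.68 and 6.25 CPM in LKO mice 1 to 3. The WT mice spread over a range that held all 3 LKO mice, which were themselves nearly equal. The means were 6.67 ± 4.99 and 6.60 ± 0.324 CPM (SD, n = 3). The log2 fold change was −0.01 ± 0.48 (SE, adjusted p = 0.99), and it was 0.76 (adjusted p = 0.13) without WT mouse 3.

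**Figure D3:**
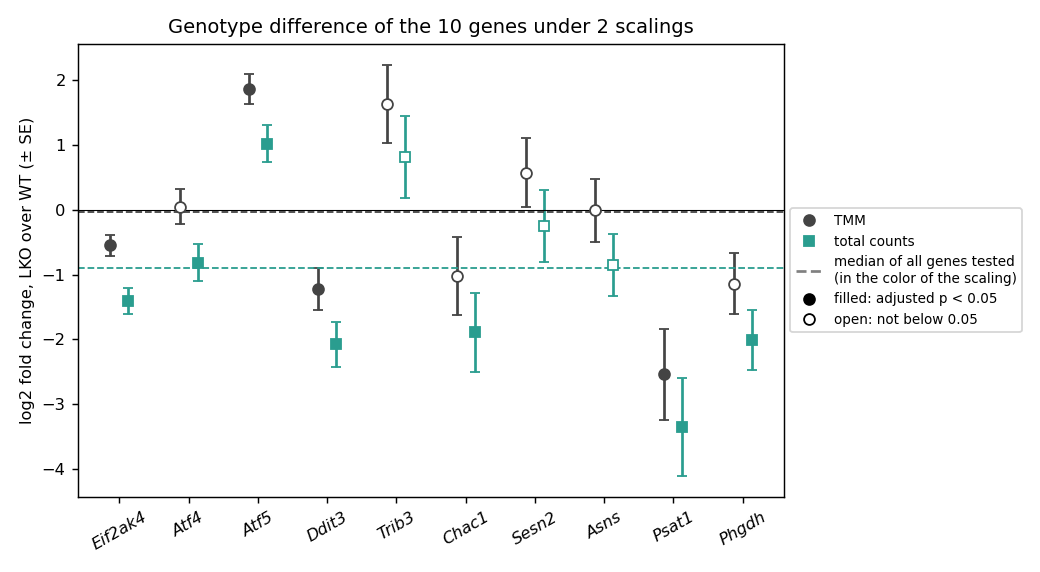
Log2 fold change of each member, LKO over WT, with its SE, from the fit with TMM (circles) and from the fit with library totals (squares). Filled symbols passed an adjusted p of 0.05, and the dashed lines mark the median of all genes tested, −0.04 and −0.90. Every member shifts down by close to the same amount as all genes do.

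Compared per length, as TPM within each group, the order of the members was led by *Atf4* in both genotypes. In WT it stood at 71.9 ± 7.07 TPM (SD, n = 3). *Atf5* (9.22), *Ddit3* (9.01), *Asns* (6.56), *Chac1* (4.25) and *Eif2ak4* (3.82) came next, and neighbours among them overlapped between mice. *Sesn2* (2.14), *Trib3* (1.19), *Psat1* (0.985) and *Phgdh* (0.485) followed, and of these neighbours only *Trib3* and *Psat1* overlapped. In LKO *Atf4* (26.1 ± 13.4 TPM) and *Atf5* (11.7 ± 4.097 TPM) were each separate from the next gene. *Asns* (2.28), *Ddit3* (1.65), *Trib3* (1.36), *Sesn2* (1.17), *Eif2ak4* (0.905) and *Chac1* (0.734) formed a run of overlapping neighbours. *Phgdh* (0.0733) and *Psat1* (0.0568) lay below them. With 3 mice a group, the exact two-sided permutation test cannot go below p = 0.1. In CPM it gave that value for the 5 members without overlap (*Eif2ak4*, *Atf5*, *Ddit3*, *Trib3* and *Psat1*). On TPM it did so for *Eif2ak4*, *Atf4*, *Ddit3*, *Chac1*, *Psat1* and *Phgdh*, all lower in LKO, on a scale where limma called 71.5% of all genes lower and 2.43% higher, 6 members lower and none higher.

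The surrounding pathway was followed in 12 lists with 121 genes, of which 116 were tested. Of these, 23 were called higher and 41 lower, against 19.6% and 20.5% of all genes, and the lists are read against these shares. The lists were chosen with earlier results of these data known, so these comparisons are descriptive only. Among the other kinases of eIF2α, 1 of 3 fell: *Eif2ak3*, which encodes PERK, the ER stress sensor, was at −1.14 (adjusted p = 0.0019). *Eif2ak1*, which encodes HRI, was at −0.51 (adjusted p = 0.056), and it reached −0.71 (adjusted p = 0.0086) without LKO mouse 3. *Eif2ak2*, which encodes PKR, was at −0.18 (adjusted p = 0.39). With library totals all 3 were called lower, as were 51.4% of all genes. Of the 4 GCN2 partners, *Gcn1*, which encodes the protein that couples GCN2 to the ribosome, fell (−1.04, adjusted p = 0.0077), while *Rwdd1* rose (1.04, adjusted p = 9.4e-04). On log2(TPM + 1) *Rwdd1* was at −0.48, above the median of all genes on that scale, −0.79. With library totals none of these partners was called higher and 3 were called lower.

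Of 10 genes for subunits of eIF2, its exchange factor eIF2B and related initiation factors, 6 were higher and 1 lower with TMM and 3 were not called, against 19.6% of all genes higher, and the median log2 fold change was 0.71. *Eif2s1*, which encodes the GCN2 substrate eIF2α and is named after its value was seen, was among the 6, at 0.91 (adjusted p = 0.0023), but it was at 0.030 (adjusted p = 0.88) with library totals and at −0.62 on log2(TPM + 1). The gene called lower, also named after its value was seen, was *Eif2b1*, for a subunit of eIF2B (−0.90, adjusted p = 0.0017). The largest of those higher were *Eif2s2*, for eIF2β (1.64, adjusted p = 3.3e-04), *Eif2a*, for the separate initiation factor eIF2A (1.33, adjusted p = 5.9e-04), *Eif5*, for the GTPase activator of eIF2 (0.95, adjusted p = 0.012) and *Eif2b3*, for a subunit of eIF2B (0.93, adjusted p = 0.0033). The last 3 turned negative on log2(TPM + 1), at −0.21, −0.63 and −0.19. On that scale the median of all genes was −0.79, and these 3 genes and *Eif2s1* stayed above it. With library totals the list counted 2 higher and 4 lower, against 6.26% and 51.4% of all genes. Its median was then −0.17, against −0.90 over all genes. The regulators that remove the phosphate from eIF2α showed 2 higher and 1 lower of 6, and 0 higher and 3 lower with library totals. *Ppp1cb* and *Ppp1cc*, catalytic subunits of protein phosphatase 1, rose with TMM (1.21, adjusted p = 9.1e-04, and 0.73, adjusted p = 0.0032), both with the opposite sign on log2(TPM + 1), and the third subunit, *Ppp1ca*, fell (−0.60, adjusted p = 0.029), a call lost without WT mouse 1 or 3 or LKO mouse 2 or 3. *Ppp1r15a*, which encodes the ATF4-induced targeting subunit GADD34, was at 0.48 (adjusted p = 0.30), −0.37 with library totals and −0.06 without LKO mouse 3.

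Among 10 bZIP partners of ATF4, 3 rose and 1 fell, with a median of −0.04, so that the share called, 40.0%, was that of all genes (40.1%). The counts were 1 and 6 with library totals (against 6.26% and 51.4% of all genes), and 1 and 5 without LKO mouse 3. *Cebpd* rose most (3.58, adjusted p = 2.2e-04), followed by *Cebpb* (1.46, adjusted p = 0.022) and *Jdp2* (0.93, adjusted p = 0.044). On log2(TPM + 1) *Jdp2* was at −0.24, above the median of all genes on that scale, −0.79. *Nfe2l2*, which encodes the antioxidant regulator NRF2, fell (−0.76, adjusted p = 0.0048). *Atf3* was at −0.99 (adjusted p = 0.090), and at −1.64 (adjusted p = 0.0057) without LKO mouse 3. The call of *Cebpb* was lost without WT mouse 1 or LKO mouse 2 or 3, and that of *Jdp2* without any single mouse other than LKO mouse 1.

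The 12 tested ATF4-linked effectors split into 3 higher and 4 lower, with a median of −0.01. The share called was 58.3%, against 40.1% of all genes (19.6% higher and 20.5% lower). LKO mouse 3 was the highest LKO mouse in 9 of the 12 effectors, against 35.2% of all genes. Leaving out single mice gave 1 to 3 higher and 1 to 4 lower. Library totals gave 1 and 5, against 6.26% and 51.4% of all genes. *Ddit4*, which encodes the mTORC1 inhibitor REDD1, had 6.51, 2.64 and 3.99 CPM in WT mice 1 to 3 and 12.6, 28.2 and 145 CPM in LKO mice 1 to 3. The groups were separate, but LKO mouse 3 exceeded the other LKO mice several-fold. The log2 fold change was 3.82 (adjusted p = 0.0086), and 2.21 (adjusted p = 0.0062) without that mouse. *Sesn1*, for another Sestrin, showed the same mouse apart, at 113 CPM against 17.2 and 20.1, and its change of 1.99 (adjusted p = 0.041) was 0.57 (adjusted p = 0.030) without it, while leaving out any WT mouse ended the call. *Sesn3* fell (−1.57, adjusted p = 0.0029). *Gdf15*, which encodes a stress hormone made under ATF4 and CHOP, also fell (−2.09, adjusted p = 0.016), a call lost without LKO mouse 2 (adjusted p = 0.053). *Fgf21*, the hepatic fasting hormone, was at −0.43 (adjusted p = 0.65).

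Of 10 tested genes for serine, one-carbon and proline synthesis beyond the members, 6 fell, none rose and 4 were not called. Of all genes, 20.5% were called lower. The median log2 fold change of the list was −1.10, against −0.04 over all genes tested. Library totals called 51.4% of all genes lower and 6.26% higher, and all 10 genes of the list lower. Leaving out single mice left 4 to 6 of them called. *Mthfd2*, for the mitochondrial folate enzyme that is a classical ATF4 target, fell most (−2.29, adjusted p = 0.0084), followed by *Mthfd1l* (−1.60, adjusted p = 0.0019), *Aldh18a1*, which starts proline synthesis (−1.26, adjusted p = 0.012), and *Psph*, which ends serine synthesis (−1.23, adjusted p = 0.0036). Of the 20 cytosolic aminoacyl-tRNA synthetases, 11 fell, 3 rose and 6 were not called (18 fell and 1 rose with library totals), with a median of −0.59. *Cars* (−1.94, adjusted p = 5.0e-04), *Wars* (−1.26, adjusted p = 7.4e-04) and *Yars* (−1.12, adjusted p = 0.0018) were lower, while *Dars* was higher with TMM (1.45, adjusted p = 5.1e-04). On log2(TPM + 1) *Dars* was at −0.11, above the median of all genes on that scale, −0.79. The median of both lists stayed below that of all genes under either scaling, at −1.97 and −1.45 against −0.90 with library totals.

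The 12 tested amino acid transporters were divided, with 2 higher and 3 lower, a median of −0.06 and 41.7% called, near the share of all genes. With library totals 0 were higher and 6 lower, against 6.26% and 51.4% of all genes. *Slc6a9*, a glycine carrier, fell (−1.83, adjusted p = 0.0011), as did *Slc36a1*, a lysosomal and plasma membrane carrier of small amino acids (−1.41, adjusted p = 0.0032), and *Slc1a4*, a carrier of neutral amino acids (−1.36, adjusted p = 0.013). *Slc7a2*, the liver carrier of cationic amino acids, rose with TMM (1.25, adjusted p = 0.015), a call lost without WT mouse 1 or 2. On log2(TPM + 1) *Slc7a2* was at −0.28, above the median of all genes on that scale, −0.79. LKO mouse 3 was the highest LKO mouse in 9 of the 12, against 35.2% of all genes. The same count was 4 of 6 for the phosphatase list, 6 of 10 for the bZIP partners and 5 of 10 for the eIF2 list. It was 2 of 3 for the other kinases, 2 of 4 for the GCN2 partners and 4 of 8 for transsulfuration and transamination. For the tRNA synthetases it was 9 of 20, for serine, one-carbon and proline synthesis 1 of 10 and for the mitochondrial stress response 1 of 8.

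**Figure D4:**
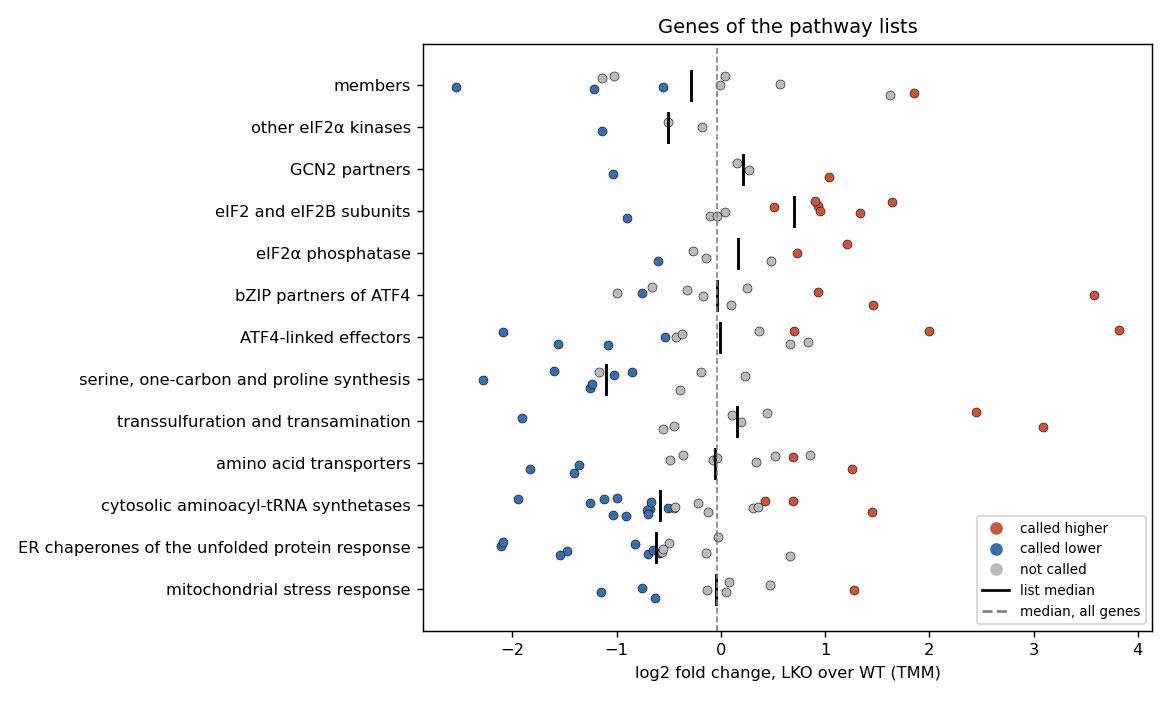
Log2 fold change with TMM, LKO over WT, of every tested gene of the members and of the 12 pathway lists (rows), each point 1 gene, red where called higher, blue where called lower and grey where not called. Black bars mark each list's median and the dashed line that of all genes, −0.04. Serine, one-carbon and proline synthesis (median −1.10), the tRNA synthetases (−0.59) and the ER chaperones (−0.62) lie to the left, and the subunits of eIF2 and eIF2B (0.71) to the right.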

How the data were processed

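Liver RNA of 3 WT and 3 LKO mice was sequenced. The labels name an mRNA library kit and the study's methods a total RNA kit after rRNA removal, and the strand setting was not given in the sources used here. The submitters' processing notes name HISAT2 2.1.0 and StringTie 2.1.3b. For each gene the authors deposited read counts, FPKM and TPM on mm10. Read counts were the input of every count test, the deposited FPKM served only to derive a relative gene length, and the deposited TPM served for levels and as an alternative. Each sample was a separate mouse and no sample column was left unused.

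Genes with more than 1 zero count were removed, as in the study, and TMM factors and the quasi-likelihood test of edgeR 4.0.16 (R 4.3.3) were applied with genotype as the only term. P-values were Benjamini-Hochberg adjusted over 18636 genes, with a threshold of 0.05, and the SE is the log2 fold change divided by the square root of F. The authors' log2 transformation of the counts and their exact test were not used for the main results, since the quasi-likelihood test allows for uncertainty in the dispersion. On simulated data of 18432 genes for this comparison, 198 of 200 genes changed by a log2 of 2 were recovered and 3 unchanged genes were called. The simulation gave all genes the same dispersion. It changed only genes above a minimum read count, up and down in equal number. It therefore cannot speak for smaller changes, for genes with few reads or for the choice of scaling. Alternatives used DESeq2 1.42.0 and limma 3.58.1, the latter on log2 TPM with pseudocounts of 1 and 0.1. All members were named, together with up to 4 called genes per list with the largest changes and a few genes of defining role. The nearest patterns were sought among genes averaging 1 CPM or more. The members and lists were chosen with earlier results of these data known. Coordinates and promoters are RefSeq GRCm38.p6, matched for 45679 gene IDs, and strand overlaps were read from the GENCODE annotation of GRCm38.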

Additional observations from a re-analysis of the deposited data

How the results depend on the processing

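With library totals, 6 members were called lower rather than 3, and of the pathway genes 7 were called higher and 80 lower rather than 23 and 41. Of all genes, that scaling called 6.26% higher and 51.4% lower. On log2(TPM + 1) and log2(TPM + 0.1), 0 members were called higher and 6 lower, and 2 and 2 pathway genes were higher and 95 and 96 lower. Of all 18636 genes tested, limma called 453 (2.43%) higher and 13322 (71.5%) lower on log2(TPM + 1). On log2(TPM + 0.1) it called 467 higher and 13535 lower. In either direction limma called 13775 genes on log2(TPM + 1), against 7476 in the quasi-likelihood test. *Atf4* turned to −0.82 with library totals, −1.53 on log2(TPM + 1) and −1.57 on log2(TPM + 0.1), *Sesn2* to −0.26, −0.65 and −1.17, and *Trib3* to −0.053 and −0.29 on the TPM scales. The median of all genes was −0.90 with library totals, −0.79 on log2(TPM + 1) and −1.34 on log2(TPM + 0.1). As a log2 ratio of mean TPM, *Atf4* was at −1.46 and *Sesn2* at −0.88. *Asns*, at −0.01, took the other sign with DESeq2 (0.015), DESeq2 size factors (0.016), upper-quartile scaling (0.071), TMM from protein-coding genes (0.055), filterByExpr (0.017), a minimum mean of 1 CPM (0.056) and a gene length correction (0.027), all far inside its SE. *Trib3* passed the threshold, making 2 members higher, with edgeR's exactTest (adjusted p = 0.025), with DESeq2 (adjusted p = 0.0080) and with the minimum mean of 1 CPM (adjusted p = 0.045), which removes *Psat1* and *Phgdh*. *Eif2ak4* had an adjusted p of 0.069 with the length correction. Leaving out each mouse in turn gave 1 to 2 members higher and 1 to 4 lower (1 without WT mouse 1, WT mouse 2 or LKO mouse 2), 16 to 24 pathway genes higher and 29 to 42 lower, and log2 fold changes of −0.41 to 0.76 for *Asns*, −0.32 to 0.27 for *Atf4*, −0.43 to 0.90 for *Sesn2* and 0.45 to 2.03 for *Trib3*. Over all genes, leaving out a mouse called between 5663 (without WT mouse 3) and 7309 (without LKO mouse 3), against 7476 with all 6 mice. The replicate block called 6431. Apart from the results given, the cause of these shifts was not tested. The labels number the mice but do not say whether same-numbered mice were paired. Deviations of same-numbered mice correlated at 0.00023, −0.039 and −0.056, and no mouse correlated best with its own number. Whether same-numbered mice shared a litter or a batch was not tested. With the replicate block, 1 member was higher and 2 lower (*Eif2ak4* adjusted p = 0.054), *Asns* was at 0.27 and *Atf4* at −0.024, and with the block and the length correction together they were at 0.31 and −0.029. The common biological coefficient of variation was 0.254, and *Phgdh* and *Psat1* rest on 26 and 25 LKO reads.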

Other observations

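Of 14 ER chaperones of the unfolded protein response, 8 fell and none rose (57.1% called, against 40.1% of all genes), and their median was −0.62 on the log2 scale. Library totals called 13 lower, on a scale where 51.4% of all genes were called lower and 6.26% higher. Leaving out single mice left 4 to 8 of the chaperones lower. *Creld2* (−2.11, adjusted p = 0.0013), *Hyou1*, an ER chaperone of the HSP70 family (−2.09, adjusted p = 7.4e-04), *Pdia4*, a disulfide isomerase (−1.55, adjusted p = 0.0023), and *Calr*, which encodes calreticulin (−1.48, adjusted p = 0.0010), fell most. LKO mouse 3 was the highest LKO mouse in 1 of these 14 genes, against 35.2% of all genes. Of 8 genes of the mitochondrial stress response, 4 were called, near the share of all genes, 3 of them lower and 1 higher. *Lonp1*, a matrix protease (−1.15, adjusted p = 0.0015), was lower. So were *Dele1* (−0.76, adjusted p = 0.014) and *Oma1* (−0.64, adjusted p = 0.015), which relay mitochondrial stress to HRI. The chaperonin gene *Hspe1* was higher with TMM (1.27, adjusted p = 0.0047). On log2(TPM + 1) *Hspe1* was at −0.26, above the median of all genes on that scale, −0.79. The calls of *Dele1* and *Oma1* were each lost without WT mouse 1, and that of *Dele1* also without WT mouse 3. With library totals 0 were higher and 6 lower.

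Among 8 genes of transsulfuration and transamination, 2 were higher and 1 lower (37.5% called, near the share of all genes), with a median of 0.15. Library totals gave 2 and 4, against 6.26% and 51.4% of all genes. *Cth*, which encodes the cystathionine γ-lyase that makes cysteine, rose by 3.09 (adjusted p = 1.2e-04), and *Got1*, the cytosolic aspartate aminotransferase, by 2.44 (adjusted p = 0.0048), or by 1.58 (adjusted p = 6.1e-04) without LKO mouse 3. *Gclc*, for the catalytic subunit of the enzyme that starts glutathione synthesis, fell (−1.91, adjusted p = 4.0e-04).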
